A study of Mus musculus with 7 samples.

Results

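The chemokine gene Cxcl12 and the gene of its receptor, Cxcr4, were read by 4 of the 45101 probe sets of the array. The members are all probe sets that the platform annotation assigns to exactly 1 of these 2 genes, 3 for Cxcl12 (1448823_at, 1417574_at and 1439084_at) and 1 for Cxcr4 (1448710_at). The 2 genes were selected on measured values, the difference in log2 MAS5 signal between Nestin-positive and Nestin-negative cells, so that difference is given as a description, without a test. RNA came from 4 Nestin-positive samples (replicates 1, 3, 4 and 5) and 3 Nestin-negative samples (replicates 1, 4 and 5) of granule neuron precursors, sorted by flow cytometry on a Nestin-CFP reporter and not cultured. All samples shared the genotype Math1-Cre/Ptc-loxp/Nestin-CFP. Math1-Cre, active in the granule neuron lineage, deletes Ptch1, whose product restrains Hedgehog signalling, and no sample with Ptch1 intact was analysed here. The sample labels give postnatal day 7 and the tissue medulloblastoma, whereas the series description gives postnatal day 4. The labels do not say whether the samples came from separate animals or pools, so that the spread between them may in part be technical.

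CXCL12 is a secreted chemokine that binds the G protein-coupled receptor CXCR4, which acts through Gi proteins on cell migration and survival. In the developing cerebellum the meninges release CXCL12, and granule neuron precursors carry CXCR4, which holds them in the external granule layer beneath the pia. Mice without either gene have granule cells that leave this layer too early. CXCL12 also increases the proliferative response of these precursors to Sonic hedgehog. ACKR3 is a scavenging receptor that removes the ligand.

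The promoters of both genes are shown because the signals of ligand and receptor differed in opposite directions between the fractions. They are RefSeq sequences of GRCm38.p6, from 250 bases before the start of the gene to 50 after it, read 5′ to 3′ on the gene's strand. Cxcl12 lies at chr6:117168285-117168584 (plus strand) and Cxcr4 at chr1:128592250-128592549 (minus strand). Capitals mark matches, on either strand, to the motifs named after them.
Cxcl12: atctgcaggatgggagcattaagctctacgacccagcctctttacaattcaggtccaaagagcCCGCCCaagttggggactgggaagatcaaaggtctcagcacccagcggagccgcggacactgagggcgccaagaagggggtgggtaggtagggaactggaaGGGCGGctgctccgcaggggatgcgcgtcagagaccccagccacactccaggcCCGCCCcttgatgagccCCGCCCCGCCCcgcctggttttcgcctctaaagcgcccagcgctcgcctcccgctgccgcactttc
Cxcr4: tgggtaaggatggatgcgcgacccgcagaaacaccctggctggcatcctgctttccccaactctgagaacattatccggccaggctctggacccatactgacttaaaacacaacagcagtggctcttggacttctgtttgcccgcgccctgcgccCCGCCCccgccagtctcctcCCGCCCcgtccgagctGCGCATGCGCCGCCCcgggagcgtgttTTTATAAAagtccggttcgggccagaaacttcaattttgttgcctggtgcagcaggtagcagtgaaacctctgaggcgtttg
The Cxcl12 promoter held 5 matches to the GC box GGGCGG, 2 of which share a base, and the Cxcr4 promoter held 3, as against at least 1 match in 35.7% of 32851 mouse promoters of the same length. The TATA box TATAAA, found in 13.6% of promoters, had no match in the Cxcl12 window. In the Cxcr4 window it matched on both strands, in overlapping positions that begin 32 and 30 bases before the start of the gene. The motif GCGCATGCGC of the factor NRF1, present in 0.971% of promoters, matched once in the Cxcr4 window, where its last base is shared with a GC box, and not in that of Cxcl12. Neither window held the Gli motif GACCACCCA (0.253% of promoters) or the hypoxia response core ACGTG (19.6%). These matches describe letters and do not show that a factor binds there.

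The values are MAS5 signals, an intensity of each probe set on a linear scale that the authors brought to the same trimmed mean on every array. Array medians lay between 64.4 and 94.5, and a signal below the median of its own array is treated as dim. Nes, the gene whose reporter was used for the sort, had signals of 478, 829, 722 and 543 in Nestin-positive cells. In Nestin-negative cells they were 179, 174 and 217. All 4 Nestin-positive arrays were thus above all 3 Nestin-negative ones. This is the direction of the sort, which was made on the reporter and not on the Nes transcript. All 12 granule neuron precursor markers on the array, Atoh1 among them, were at or above the array median on all 7 arrays.

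The signal of Cxcl12 was lower in Nestin-positive cells. Its brightest probe set, 1448823_at, gave 402, 368, 693 and 738 in Nestin-positive replicates 1, 3, 4 and 5, and 1237, 2077 and 2115 in Nestin-negative replicates 1, 4 and 5. The groups did not overlap, since the dimmest Nestin-negative array was 1.68-fold above the brightest Nestin-positive one. Of 11089 genes tested, 15.0% had groups that did not overlap, and 9.11% had values that were lower on every Nestin-positive array. The mean signal was 550.2 ± 192 in Nestin-positive cells (SD, n = 4) and 1809.5 ± 496 in Nestin-negative cells (SD, n = 3), and the log2 difference was -1.74 ± 0.29 (SE), or 3.35-fold lower. The arrays of each fraction also differed among themselves. The highest Nestin-positive signal was 2.01 times the lowest, with replicates 1 and 3 low and replicates 4 and 5 high, and in Nestin-negative cells the factor was 1.71, with replicate 1 low.

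**Figure D1:**
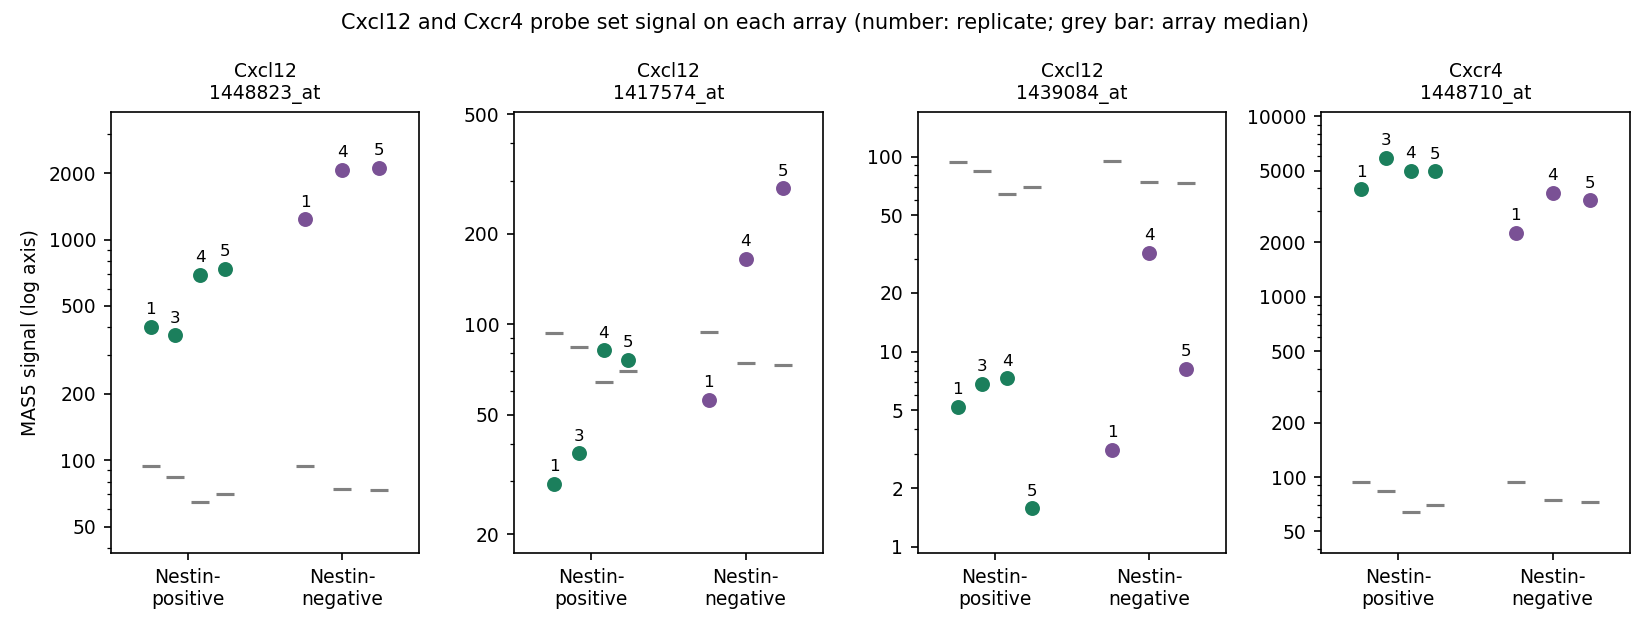
MAS5 signal of the 3 Cxcl12 probe sets and the Cxcr4 probe set on each of the 7 arrays (log axes with separate ranges), with the replicate number above each point and the array median as a grey bar. Cxcl12 1448823_at lies at 368 to 738 in Nestin-positive and 1237 to 2115 in Nestin-negative cells, Cxcr4 at 3946 to 5905 and 2258 to 3759.8, and Cxcl12 1417574_at at 29.4 to 82.1 and 56.0 to 284, while 1439084_at lies below the array median throughout.

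The remaining Cxcl12 probe sets gave lower signals. Probe set 1417574_at gave 29.4, 37.2, 82.1 and 76.2 in Nestin-positive and 56.0, 165 and 284 in Nestin-negative cells, and was below the array median on replicates 1 and 3 of the Nestin-positive and replicate 1 of the Nestin-negative cells. Its groups overlapped, with a log2 difference of -1.43 ± 0.60 (SE) that rests in part on these 3 dim values. It was 2.02-fold and 3.72-fold lower in the Nestin-positive sample of replicates 4 and 5, and in replicate 1 both values were dim and are given no order. Probe set 1439084_at was below the array median on all 7 arrays, with 1.58 to 7.32 in Nestin-positive and 3.15 to 32.2 in Nestin-negative cells, and these values are given no order. Cxcl12 is transcribed as several splice forms with different 3′ ends, and which of them each probe set reads was not examined here.

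The signal of Cxcr4 was higher in Nestin-positive cells, by less than that of Cxcl12 was lower. Probe set 1448710_at gave 3946, 5905, 5000.1 and 4956 in Nestin-positive replicates 1, 3, 4 and 5, and 2258, 3759.8 and 3414 in Nestin-negative replicates 1, 4 and 5. It was far above the array median on every array. The groups did not overlap, but the gap was narrow: the dimmest Nestin-positive array was 1.05-fold above the brightest Nestin-negative one, whereas the spread within a group reached 1.50-fold in Nestin-positive and 1.67-fold in Nestin-negative cells. Of all genes tested, 5.87% were higher on every Nestin-positive array. With each array centred on its median the Cxcr4 groups overlapped, while those of Cxcl12 stayed apart. The mean signal was 4952 ± 800.3 in Nestin-positive (SD, n = 4) and 3144 ± 787 in Nestin-negative cells (SD, n = 3), a log2 difference of 0.67 ± 0.19 (SE), or 1.60-fold. Replicate 1 was the dimmest array of both fractions. The difference was 0.45 when Nestin-negative replicate 1 was left out and 0.82 when Nestin-negative replicate 4 was.

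Set pair by pair, the Cxcl12 difference was nearly the same in all 3 same-numbered pairs. The log2 difference was -1.62, -1.58 and -1.52 in replicates 1, 4 and 5, or 3.07-fold to 2.87-fold lower in the Nestin-positive sample, with a mean of -1.57 and an SD of 0.05 over the pairs. The spread of this probe set between arrays of a fraction was therefore largely shared within a pair, as the low replicate 1 of both fractions shows. How even the pairs were depended on the scaling. They gave -1.82, -1.54 and -1.49 with quantile normalization, and -1.61, -1.38 and -1.45 with arrays centred on their medians. Cxcl12 1417574_at was less even, at 2.02-fold and 3.72-fold lower in replicates 4 and 5. For Cxcr4 the Nestin-positive sample was 1.75-fold, 1.33-fold and 1.45-fold higher in the same pairs, with a mean log2 difference of 0.58 and an SD of 0.20. The log2 difference of Cxcr4 minus that of Cxcl12 was 2.43, 2.00 and 2.06 in replicates 1, 4 and 5, a quantity that is the same whatever factor an array is multiplied by. The signals of ligand and receptor thus differed unequally between the fractions.

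**Figure D2:**
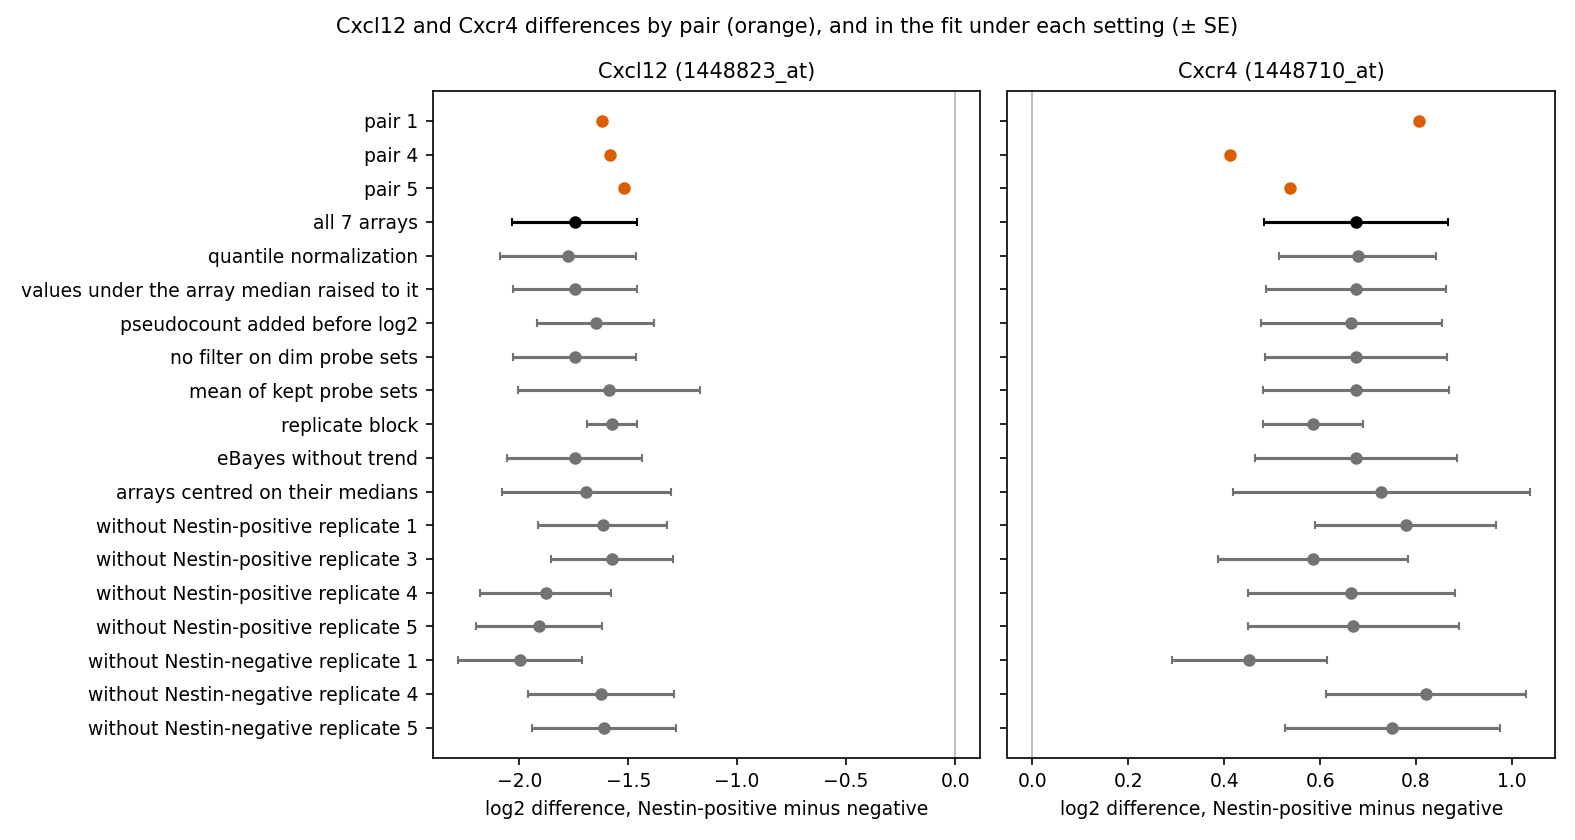
Log2 difference, Nestin-positive minus Nestin-negative, of the brightest Cxcl12 and Cxcr4 probe sets in each same-numbered pair (orange), in the fit of all 7 arrays (black, ± SE) and under each alternative setting (grey, ± SE; the setting with the mean of kept probe sets averages 1448823_at and 1417574_at for Cxcl12). Cxcl12 stays between -2.00 and -1.57 and Cxcr4 between 0.45 and 0.82 over the 15 alternatives.

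Markers of other cell types were also measured on each array, and which cells gave the Cxcl12 signal was not tested. In these bulk samples, fewer cells of a type and less RNA per cell cannot be told apart. The 16 meningeal fibroblast markers summed to 4954, 5047, 6959 and 6689 on Nestin-positive replicates 1, 3, 4 and 5 and to 6058, 12871 and 13127 on Nestin-negative replicates 1, 4 and 5. Between 4 and 9 of them reached the array median on Nestin-positive arrays, and between 7 and 13 on Nestin-negative arrays. The collagen genes Col3a1 and Col1a2 reached it on all 7 arrays, with 401 to 1496 and 173 to 377 in Nestin-positive and 1108 to 4219 and 280.2 to 1499 in Nestin-negative cells, as did Islr, and the proteoglycan genes Dcn and Lum reached it on 2 of the 4 Nestin-positive and all 3 Nestin-negative arrays. The transcription factor gene Foxc1 and the collagen gene Col1a1 did not reach the array median on any Nestin-positive array, and Aldh1a2, which encodes a retinoic acid-synthesising enzyme, was below it on all 7 arrays. Pdgfra, which precursors of oligodendrocytes also express, gave 2752 to 3234 of the Nestin-positive and 3321 to 3916 of the Nestin-negative sums.

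The 14 pericyte and smooth muscle markers, of which 3 to 10 reached the median on Nestin-positive and 6 to 11 on Nestin-negative arrays, summed to 648, 776, 2218 and 2137 in Nestin-positive and to 1458, 7887 and 10022 in Nestin-negative cells. Rgs5, a pericyte gene, reached the median on 3 of the 4 Nestin-positive and all 3 Nestin-negative arrays, and the smooth muscle actin gene Acta2 on 2 and 3, with 54.9 to 162 in Nestin-positive and 180.03 to 913 in Nestin-negative cells. Myh11 and Cnn1, of contractile smooth muscle, and Anpep were below it on all 7 arrays. The 14 microglia and macrophage markers summed to 401, 448, 771 and 1270.2 in Nestin-positive and to 2316, 3245 and 8638 in Nestin-negative cells, with 0 to 7 and 8 to 13 of them at or above the median, and these sums did not overlap. Neither did those of the 18 granule neuron differentiation markers, at 83236 to 96468 in Nestin-positive and 109001 to 118504 in Nestin-negative cells (16 or 17 at or above the median in both), nor those of the 15 markers of interneurons, Purkinje cells and other cerebellar neurons, at 14016 to 16690 and 18616 to 23804 (5 to 7 and 7 to 10 of them at or above the median). Most of the sums of these 15 markers came from Reln, at 10322 to 11975 in Nestin-positive and 12502 to 17368 in Nestin-negative cells. Of the 9 of these markers that were tested, 4 were lower on every Nestin-positive array and 0 were higher on every one. Over all genes tested the shares were 9.11% and 5.87%. Among the 4, Gad1 reached the array median on 0 Nestin-positive and 3 Nestin-negative arrays, and Tfap2b on 1 and 3. For both, the Nestin-negative arrays were enough to be tested, so their entry was not independent of the difference. The groups of Pvalb, Calb1 and Calb2 overlapped. The sums overlapped for the 16 endothelial markers (2409 to 6413 in Nestin-positive, 2401 to 5774 in Nestin-negative; 4 to 14 and 6 to 12 at or above the median), the 14 astrocyte and Bergmann glia markers (11811 to 34800 and 9340 to 25865; 12 to 14 and 13 to 14) and the 9 oligodendrocyte lineage markers (6058 to 7926 and 7266 to 8491; 6 and 6 to 7). Sox18 alone gave 1405 to 3146 of the Nestin-positive and 1142 to 2217 of the Nestin-negative endothelial sums. The endothelial markers Pecam1 and Tie1 were below the array median on all 7 arrays.

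Cxcl12 can be set beside these lists on single arrays, across replicate numbers or within a pair. Cxcl12 was 693 and 738 on Nestin-positive replicates 4 and 5 and 1237 on Nestin-negative replicate 1. On that Nestin-negative array the meningeal, pericyte, endothelial and astrocyte sums were all lower than on either of these Nestin-positive arrays. The oligodendrocyte lineage and granule neuron precursor sums were lower on it too. The microglial, granule neuron differentiation and other cerebellar neuron sums were higher. These arrays differ in replicate number. In every same-numbered pair the meningeal and pericyte sums were higher on the Nestin-negative array, as Cxcl12 was. So were the microglial, granule neuron differentiation, other cerebellar neuron and oligodendrocyte lineage sums. The endothelial sum was higher there in replicate 5 alone, and the astrocyte sum in replicates 4 and 5. The granule neuron precursor sum was higher there in replicate 1 alone. Cxcr4 was lowest, at 2258, on Nestin-negative replicate 1, which had the highest sum of granule neuron differentiation markers, 118504. Within the Nestin-positive cells the order was another: replicate 1, with the lowest Cxcr4 signal of these arrays, 3946, had the lowest sum, 83236, and replicates 3, 4 and 5, with 5905, 5000.1 and 4956, had sums of 85451, 96468 and 94184. The sum of the granule neuron precursor markers varied little, at 74273 to 86569 in Nestin-positive and 77713 to 84226 in Nestin-negative cells. Single markers varied more, such as Atoh1, at 2806 to 5318 and 2222 to 4499. Of the 12, 2 were lower on every Nestin-positive array and 0 were higher on every one, as against 9.11% and 5.87% of all genes tested. In a limma fit with the replicate number as a block, 4 passed as higher and 0 as lower, as against 3.58% and 6.39% of all genes.

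**Figure D3:**
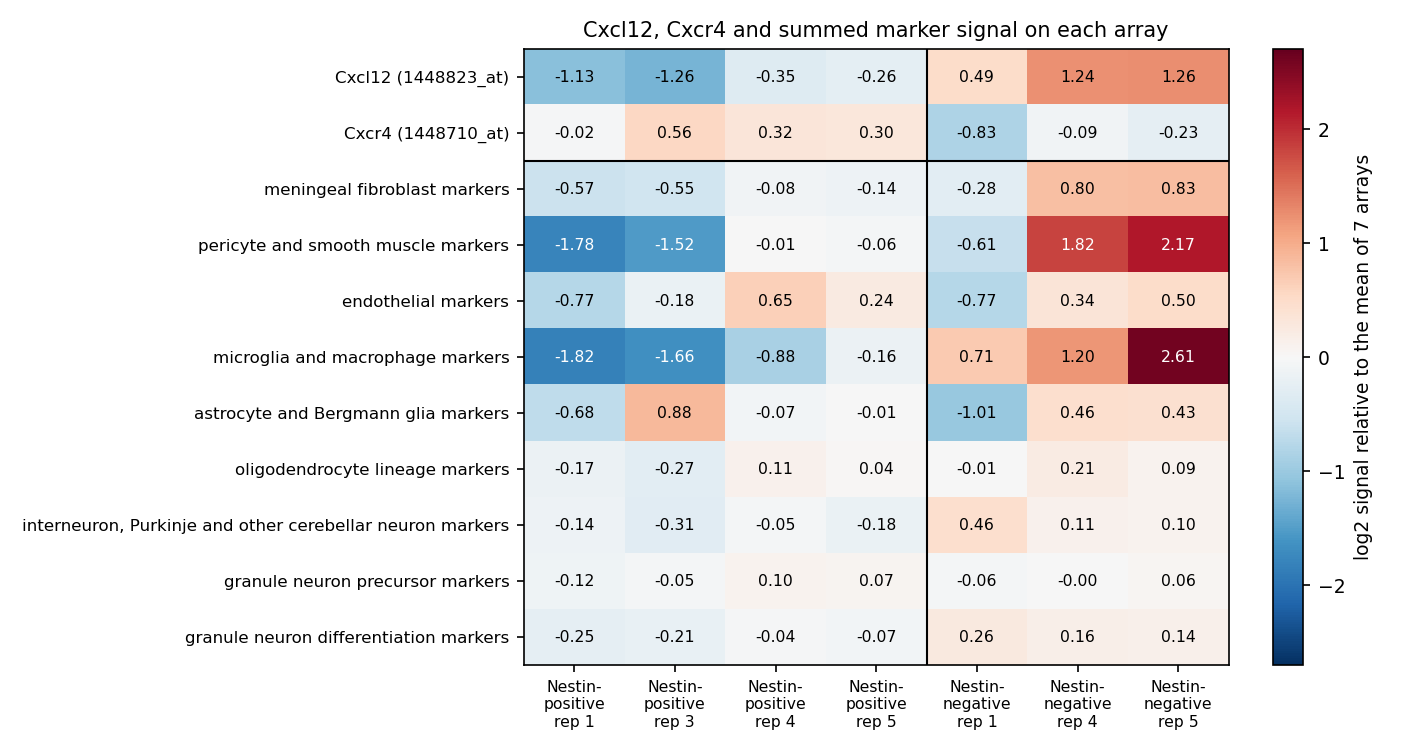
Log2 signal of Cxcl12, Cxcr4 and the summed signal of each marker list on the 7 arrays, relative to the mean of all 7 (red higher, blue lower), with the 4 Nestin-positive arrays left of the line. On Nestin-negative replicate 1, Cxcl12 stands at 0.49 while the meningeal and pericyte sums stand at -0.28 and -0.61. On its same-numbered Nestin-positive array they stand at -1.13, -0.57 and -1.78. On Nestin-negative replicates 4 and 5, Cxcl12 stands at 1.24 and 1.26, the meningeal sum at 0.80 and 0.83 and the pericyte sum at 1.82 and 2.17.

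The genes most like each member were ranked by Pearson's r of log2 signal over the 7 arrays, as a description, since all values share these arrays and the split into 2 fractions. For Cxcl12 they were Lhfp (r = 0.996), the calcineurin regulator gene Rcan2, the actin-binding protein gene Coro1a, the RNA-binding protein gene Nanos1 and Tspyl4, with r from 0.985 to 0.996. Lhfp had signals of 126, 130, 266 and 256 in Nestin-positive and 396, 744 and 772 in Nestin-negative cells, the same order of low and high arrays within the Nestin-negative cells as Cxcl12. For Cxcr4 they were Osgepl1, a gene of tRNA modification, the hyaluronan receptor gene Cd44, the zinc finger gene Rreb1, Kitl, which encodes the ligand of the receptor KIT, and the spindle protein gene Nusap1, with r from 0.986 to 0.995. Cd44 had signals of 843, 1465, 1343 and 1188 in Nestin-positive and 362, 716 and 646 in Nestin-negative cells. In both rankings 81 of 11087 genes had an r over 0.95, so that these names are the top of a broad group.

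Other genes of the chemokine axis were taken from lists by role and tested with limma over all genes. Of 98 such genes tested, 2 passed at an adjusted p of 0.05, as against 0.748% of all 11089 genes (0.171% higher and 0.577% lower in Nestin-positive cells). Elmo1, an adaptor that activates the small GTPase Rac together with Dock proteins, fell, and Ebf2, a transcription factor of the early B cell factor family, rose. The median log2 difference of the 98 genes was -0.13, and that of all genes was -0.03. In this limma fit 21 of the 98 had an unadjusted p under 0.05, as against 1599 of all 11089 genes. With the replicate number as a block, 18 passed, 2 higher and 16 lower, as against 9.97% of all genes (3.58% higher and 6.39% lower). Several of the 18 also stand in the marker lists above, Rgs5 among the pericyte, Cx3cr1 among the microglial and Tbx18 among the meningeal markers. The 18 also include Cd74, which was bright enough to be tested through its Nestin-negative values alone, so that its call is a description. The Nestin-negative arrays were also enough for Cx3cr1 to be tested, and its call is likewise a description.

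Of 12 ligands, receptors and proteases listed beside the members, 6 were tested and limma called 0 without the block (2 at an unadjusted p under 0.05), with a median log2 difference of 0.08. Ackr3, the scavenging receptor of CXCL12, gave 79.6, 276, 187 and 169 in Nestin-positive and 56.3, 321 and 169 in Nestin-negative cells. Its groups overlapped widely, with a log2 difference of 0.16 ± 0.57 (SE; limma, adjusted p = 0.929), and its sign turned with the block and without Nestin-positive replicate 3 (-0.09 in both), with dim values raised to the median (-0.03) and without Nestin-negative replicate 1 (-0.52). Dpp4, a peptidase that inactivates CXCL12, was below the array median on all 7 arrays. The sialomucin gene Cd164, whose product associates with CXCR4 in human cells, differed by 0.29 ± 0.10 (SE; adjusted p = 0.224), and the gelatinase gene Mmp2 by -0.80 ± 0.49 (adjusted p = 0.504). The Mmp2 value rests on Nestin-positive replicate 3, without which, as with the block, it was -0.29. Cd74, which encodes the invariant chain and a receptor for MIF, lay under the array median in each of the 4 Nestin-positive samples and was at least 1.46-fold lower there. It passed with the replicate block alone (limma, adjusted p = 0.0380, against 0.165 without it). A gene was tested if it was at or above the array median on at least 3 arrays. Cd74 met this through the Nestin-negative arrays alone, the group in which it was higher. Its entry was thus not independent of the difference, and its p-values are given as a description.

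Heparan sulfate proteoglycans and their modifying enzymes hold chemokines at cell surfaces. Of 16 tested, limma called 0 (1 at an unadjusted p under 0.05), with a median log2 difference of -0.10. The glypican gene Gpc3 differed by 0.45 ± 0.16 (SE; adjusted p = 0.230), the sulfatase gene Sulf2 by -0.67 ± 0.30 (adjusted p = 0.349) and the glypican gene Gpc1 by -0.41 ± 0.20 (adjusted p = 0.412). With the block, Gpc3 rose (0.54 ± 0.12, adjusted p = 0.00388) and Sulf2 fell (-0.67 ± 0.20, adjusted p = 0.0382). Without the block, the Sulf2 difference was -0.41 when Nestin-positive replicate 1 was left out and that of Gpc1 -0.27 when Nestin-negative replicate 5 was.

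Downstream of the receptor, limma called 0 of 17 G protein and Rgs genes, and 7 had an unadjusted p under 0.05. Over all 11089 genes, 1599 did. The median log2 difference of the 17 was -0.27, and that of all genes -0.03. Gnao1, an alpha subunit of neurons, gave 552, 458, 444 and 482 in Nestin-positive and 770.2, 680 and 627 in Nestin-negative cells. It differed by -0.52 ± 0.14 (SE; adjusted p = 0.121; 0.0143 with the block). Of the regulators of G protein signalling, Rgs3 differed by -0.62 ± 0.22 (adjusted p = 0.241; 0.0246 with the block) and Rgs16 by -0.67 ± 0.27 (adjusted p = 0.282). With the block Rgs5 and the inhibitory alpha subunit gene Gnai1 were lower too, both named after their values were seen. Among 17 genes of receptor desensitisation and traffic limma called 0 (1 at an unadjusted p under 0.05), with a median log2 difference of -0.11. Arrb1, a beta-arrestin that uncouples the receptor, differed by -0.65 ± 0.19 (adjusted p = 0.158; 0.0185 with the block), the kinase gene Prkcd by -0.70 ± 0.32 (adjusted p = 0.364) and the deubiquitinase gene Usp14 by 0.24 ± 0.13 (adjusted p = 0.454; 0.13 without Nestin-negative replicate 1). Prkcd was below the array median on 3 of the 4 Nestin-positive arrays, and its difference was -0.30 with dim values raised to the median. Its Nestin-negative arrays were enough for it to be tested, so its p-value is a description.

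Of 21 effectors of chemotaxis, with a median log2 difference of -0.10, Elmo1 alone passed. Its signal was 496, 499, 673 and 628 in Nestin-positive and 1080.3, 1013 and 958 in Nestin-negative cells. The groups did not overlap, and the log2 difference was -0.84 ± 0.15 (SE; limma, adjusted p = 0.0403). Its sign held in all 15 alternatives, but the call held in 4 of them, with adjusted p-values from 0.000455 with the replicate block to 0.511 with arrays centred on their medians. Of the 7 fits that left out an array, the call held in the one without Nestin-positive replicate 4 (adjusted p = 0.0344), and the highest adjusted p was 0.163. Stat3, a transcription factor activated by cytokine receptors, was lower with the block as well, and was named after its values were seen.

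Other chemokines were mostly dim: of 38 listed ligands and receptors on the array, 6 passed the filter on dim probe sets, and limma called 0 (2 at an unadjusted p under 0.05). Their median log2 difference was -0.60. Cx3cl1, the neuronal ligand of the microglial receptor CX3CR1, was below the array median on all 7 arrays. Cx3cr1 gave 56.8, 67.2, 52.5 and 80.2 in Nestin-positive and 156, 102 and 465 in Nestin-negative cells, and was below the array median on 3 of the 4 Nestin-positive arrays. It differed by -1.62 ± 0.46 (SE; adjusted p = 0.140; 0.000903 with the block), beside the lower sum of microglial markers, whose part in it was not tested. Cx3cr1 is itself among the markers in that sum. Its Nestin-negative arrays were enough for it to be tested, so its p-values are given as a description. Without Nestin-negative replicate 5 the difference was -0.997, and with dim values raised to the array median it was -1.29. The skin chemokine gene Ccl27a differed by -0.62 ± 0.15 (adjusted p = 0.104; 0.00543 with the block), and Ackr1, a chemokine-binding receptor of erythroid and endothelial cells, by -0.59 ± 0.27 (adjusted p = 0.369; 0.00913 with the block; -0.30 without Nestin-negative replicate 1).

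The list of transcription factors linked to chemokine or receptor expression held 15 tested genes, with a median log2 difference of -0.04. Ebf2 had signals of 942, 1107, 928 and 1199.7 in Nestin-positive and 467, 526 and 673 in Nestin-negative cells. The groups did not overlap, and the log2 difference was 0.92 ± 0.16 (SE; limma, adjusted p = 0.0403). The sign held in all 15 alternatives and the call in 4. Adjusted p-values of limma ran from 3.8e-05 with the replicate block, a fit with 2 residual degrees of freedom, to 0.330 with arrays centred on their medians. Leaving out an array kept the call for Nestin-positive replicate 4 (adjusted p = 0.0492) and otherwise gave up to 0.167. In the blocked fit, the related Ebf1, the paired box gene Pax3, the hypoxia-inducible factor gene Epas1 and the meningeal and pericyte gene Tbx18 were lower, all named after their values were seen. Foxc1, a factor of the meninges, did not pass the filter.

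**Figure D4:**
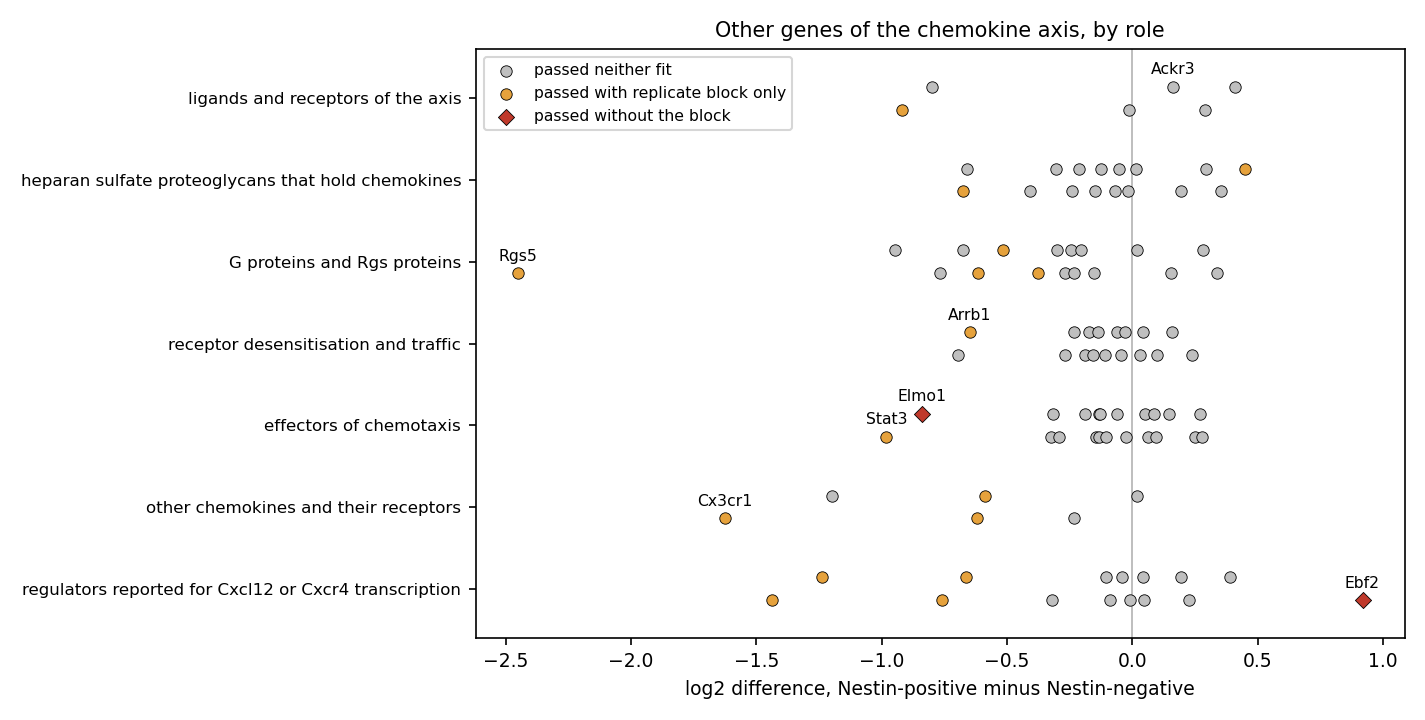
Log2 difference, Nestin-positive minus Nestin-negative, of each tested gene of the chemokine axis other than Cxcl12 and Cxcr4, by list (1 point a gene). Diamonds mark Elmo1 and Ebf2, which passed limma's adjusted threshold of 0.05, and orange points the genes that passed only with the replicate number as a block.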

How the data were processed

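Per the labels' protocols, total RNA of the sorted cells was biotin-labelled for 1-colour arrays, which the series description names as Affymetrix Mouse Genome 430 2.0. The deposited values are MAS5 signal, a linear intensity per probe set, per the submitters' processing notes, with a software version not given in the sources used here. On every array the mean without the lowest and highest 2% of values was 500.00, which shows how the authors scaled them. MAS5 subtracts mismatch signal, which makes ratios of dim values noisy. Detection calls were not used here.

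Groups and replicate numbers came from the sample titles. Of 45101 probe sets, 64 controls were left out, and 34945 were assigned to 1 gene by the platform annotation, whose symbols were brought up to date through Entrez IDs. Log2 was taken without a pseudocount. Probe sets at or above the array median on at least 3 arrays were kept, and the brightest stood for its gene, giving 11089 genes. Limma 3.58.1 in R 4.3.3 tested the difference between the fractions (eBayes with trend, two-sided, Benjamini-Hochberg over all genes, threshold 0.05), after a check on simulated data. The SE of each difference comes from this fit, and for Cxcl12 1417574_at from a fit of all probe sets. Promoters and motif shares were read from a RefSeq table.

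Replicates 1, 4 and 5 occur in both fractions. Deviations of same-numbered samples from their group means correlated with r = 0.71, 0.39 and 0.47 across genes, which are not independent, all over 0.1, so the numbers were taken to pair the samples. Nestin-positive replicates 4 and 3 also passed this limit with Nestin-negative replicate 5 (r = 0.19 and 0.14), so that the limit alone does not identify partners. For each Nestin-negative sample, r was highest with the Nestin-positive sample of the same number. The labels do not state this pairing. Nestin-positive replicate 3 has no partner and adds nothing to the difference in the fit with the replicate block. This fit leaves 2 residual degrees of freedom for each gene, and all its p-values and calls depend on the assumed pairing.

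The members, the lists and the tests were chosen with earlier results of these data known. Named are all member probe sets, each called gene of a list, or the 3 members with the smallest p where none was called, Ackr3, Dpp4, Cx3cl1 and Cx3cr1, and the 5 genes most like each member. Alternatives covered normalization, background, pseudocount, filter, choice of probe set, moderation, the replicate block and each array left out. Precision is limited by the number of arrays.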

Additional observations from a re-analysis of the deposited data

How the results depend on the processing

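Cxcl12 and Cxcr4 kept their direction in all 15 alternatives, including centring on array medians, which was added after seeing the data. The log2 difference of Cxcl12 lay between -2.00 and -1.57 with each array left out, and that of Cxcr4 between 0.45 and 0.82. All of these values lay within 1 SD of replicates from the reported ones. With the replicate block they were -1.57 ± 0.11 and 0.58 ± 0.10 (SE).

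The count of 83 genes called by limma over all genes (19 higher, 64 lower) depended strongly on the setting. It was 22 with quantile normalization (9 higher, 13 lower), 126 with a pseudocount of 50, 52 without the filter, 43 with the mean of probe sets and 1106 with the replicate block (397 higher, 709 lower). It was 0 without the trend (1573 at an unadjusted p under 0.05) and 0 with arrays centred on their medians (683 unadjusted). With each array left out it ranged from 0 to 93. It was 10 and 40 without Nestin-positive replicates 1 and 3, 0 without Nestin-positive replicate 5 (1311 unadjusted), and 5, 0 and 1 without Nestin-negative replicates 1, 4 and 5 (1344, 1131 and 1286 unadjusted).

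Of 98 chemokine axis genes, 2 were called, and 18 with the replicate block. Limma called 0 with quantile normalization (20 at an unadjusted p under 0.05), 0 without the filter (29), 0 with the mean of probe sets (19), 0 without the trend (21) and 0 with arrays centred on their medians (12). With each array left out the count was 0 to 2, and it was 2 only without Nestin-positive replicate 4. The cause of these changes was not tested. Signals below the array median, such as Cxcl12 1439084_at on all 7 arrays and 1417574_at on 3 of them, limit what can be said of low values.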
